A study of Mus musculus with 6 samples.

Results

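Islets of the pancreas are clusters of hormone-secreting cells set in exocrine tissue, and the genes described here are the REG (regenerating) family of small secreted proteins with a C-type lectin fold. The family members were taken by gene symbol: every probe set that the platform annotation assigns to Reg1, Reg2, Reg3a, Reg3b, Reg3d, Reg3g or Reg4 and to no other gene. This gave 8 probe sets for 7 genes, of 45101 on the array, and each gene had 1 probe set except Reg3b, which had 2. The islets, freed from the pancreas with collagenase, came from mice that were not pregnant (0 days after mating, given as dpc; 3 arrays) or were pregnant at 12.5 dpc (3 arrays). The study sought the factors behind islet proliferation in pregnancy. Neither the strain, the age nor the number of animals per array is stated in the labels. Each value is a MAS5 signal, a linear intensity scaled so that all arrays have the same trimmed mean. Whether each array had its own animals is not stated, so p-values cover only the variation among these samples, possibly technical. With 3 arrays a group, precision is limited.

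REG proteins are made mainly by the acinar cells of the exocrine pancreas and by the gut. Reg1 is the pancreatic stone protein of acinar juice, Reg2 is its close relative, and Reg3b, the pancreatitis-associated protein, is a stress protein that acinar cells switch on in inflammation. Reg3g is a bactericidal lectin of the gut, Reg3d is related to the islet neogenesis-associated protein, and Reg4 is a more distant member of the gut. Cytokines that act through the transcription factor STAT3, such as interleukin-6 and interleukin-22, induce several of them. Some REG proteins have been linked to the growth of islet cells. Cela1, an elastase that acinar cells secrete, was set beside the family on each array. In the mouse RefSeq gene table Reg3b, Reg3d, Reg3a, Reg2, Reg1 and Reg3g follow each other in that order on chromosome 6 with no other protein-coding gene between them, and Reg4 lies on chromosome 3.

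Acinar gene signals differed between and within the groups. The signal of Cela1 was 41421, 25868.8 and 42854.6 on the non-pregnant arrays and 14038.6, 17028.1 and 20240.2 on the pregnant ones, in the order of replicates 1, 2 and 3 that all lists of values here follow. All pregnant arrays lay below all non-pregnant ones, and the log2 difference was -1.08 ± 0.17 (standard error, SE; limma adjusted p = 0.0017). Of 22 acinar secretory genes tested, 20 fell and 0 rose, with a median log2 difference of -1.23, where the median of all probe sets tested was -0.04. Counted by gene, 5.79% of all 12914 genes tested fell and 6.1% rose, the shares that the other lists are also read against. The count of acinar secretory genes that fell dropped to 8 when pregnant replicate 1 was left out. Robust eBayes called 1 of them lower (limma adjusted p of Cela1 0.098), and a fit with no variance trend called 0 (adjusted p of Cela1 0.079). Of all 27022 probe sets tested, 1293 fell in the main fit and 677 without pregnant replicate 1. With robust eBayes 1256 of all fell, and with no variance trend 210. Centred gene by gene, their median was 0.98, -0.12 and 0.96 on the non-pregnant arrays and -0.91, -0.64 and -0.24 on the pregnant ones. Non-pregnant replicate 2 stood apart: its acinar level was the lowest of its group, and its signal for the liver gene Alb was 3973.6, against 66.8 to 120.3 on the other arrays. The liver apolipoprotein gene Apoa1 had 831.1 there and 12.9 to 60.3 elsewhere. These liver genes were picked after their values were seen. In bulk tissue, fewer cells of a type and less RNA per cell cannot be told apart, and the part of the acinar signal in the results below was not tested beyond the values given beside them. Beside these shares of 6.1% higher and 5.79% lower, beta cell markers had a median difference of 0.05 (0 of 9 rose, 2 fell), other islet hormones -0.04 (0 of 5 rose, 1 fell), duct markers -0.06 (2 of 7 rose, 2 fell), macrophage markers -0.09 (1 of 10 rose, 0 fell), and stellate cell and fibroblast markers -0.44 (0 of 12 rose, 3 fell).

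Reg3d fell in pregnancy, Reg1 and Reg2 had lower means that did not pass the test, and Reg3b had higher means that did not pass and pregnant arrays that spread over 10.2-fold and 10.7-fold in its 2 probe sets. Of the 6 REG probe sets tested, 0 rose and 1 fell at a Benjamini-Hochberg adjusted p under 0.05 in limma, where 4.78% of all 27022 probe sets tested fell and 4.79% rose. At an unadjusted p under 0.05 there were 2, Reg1 and Reg3d, both lower. The pregnant and non-pregnant arrays overlapped in every REG probe set tested, whereas 27.7% of all probe sets had groups that did not overlap.

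**Figure D1:**
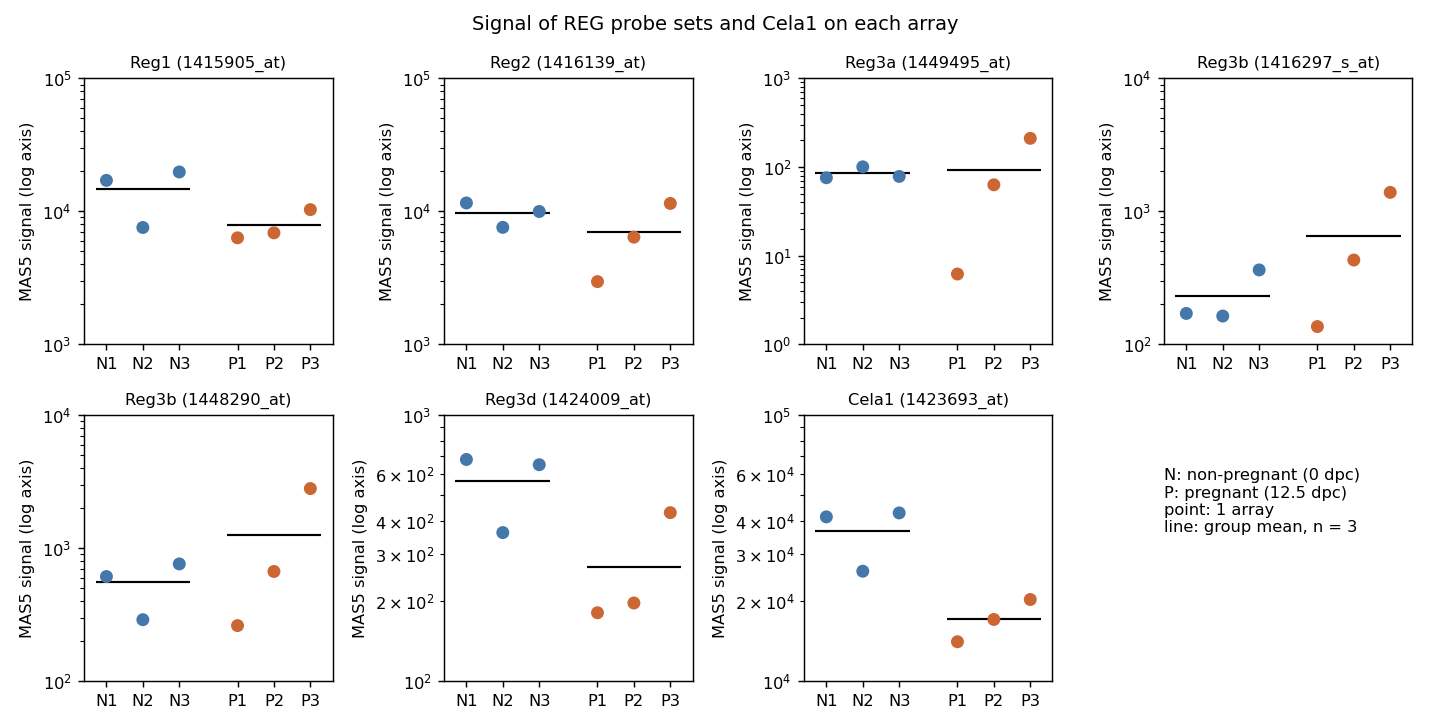
MAS5 signal (log axis) of the 6 REG probe sets tested and of Cela1 on each of the 3 non-pregnant (N) and 3 pregnant (P) arrays, 1 point per array, with the arithmetic mean of each group as a line. Cela1 alone has groups that do not overlap, and both Reg3b panels and Reg3a have their highest point on pregnant replicate 3.

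Reg1 was bright on every array. Its signal was 17091, 7555.2 and 19776.1 on the non-pregnant arrays, a mean of 14807 ± 6423 (standard deviation, SD, n = 3). On the pregnant arrays it was 6317.5, 6887.7 and 10296.8, a mean of 7834 ± 2152 (n = 3). The groups overlapped through non-pregnant replicate 2, the array with low acinar genes, which lay below pregnant replicate 3. The log2 difference was -0.84 ± 0.28 (95% interval -1.45 to -0.22; limma adjusted p = 0.091). Without non-pregnant replicate 2 it was -1.26 and passed (adjusted p = 6.9e-04), and with the replicate number as a block over all arrays it passed as well (adjusted p = 0.012). Reg1 was further from passing with median centring (adjusted p = 0.13), no filter (0.19), no variance trend (0.31) or robust eBayes (0.40). With single arrays left out its adjusted p was as high as 0.28.

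Reg3d, the member that passed the test, had 681, 361.5 and 650.8 on the non-pregnant arrays and 180.5, 196.4 and 429.6 on the pregnant ones. Here too non-pregnant replicate 2 was the low array of its group, and pregnant replicate 3 lay above it. The means were 564.4 ± 176.4 and 268.8 ± 139.5 (SD, n = 3 each), and the log2 difference was -1.08 ± 0.30 (95% interval -1.72 to -0.43; limma adjusted p = 0.040). The call was lost, at adjusted p-values of 0.13, 0.13, 0.16 and 0.14, without non-pregnant replicate 1, non-pregnant replicate 3, pregnant replicate 1 or pregnant replicate 2, and it held when non-pregnant replicate 2 (0.015) or pregnant replicate 3 (0.0045) was left out. It was also lost with quantile normalization (0.055), no filter (0.093), robust eBayes (0.13) or no variance trend (0.20).

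Reg2 had 11559.6, 7573.8 and 9970.9 without pregnancy, and 2957.7, 6396.2 and 11462.4 in pregnancy. Pregnant replicates 1 and 2 were lower than every non-pregnant array, while pregnant replicate 3 was close to the highest of them. The means of 9701 ± 2007 and 6939 ± 4278 (SD, n = 3 each) gave a log2 difference of -0.67 ± 0.35 (95% interval -1.42 to 0.09; limma adjusted p = 0.28). Without pregnant replicate 3 the difference was -1.13 and passed (adjusted p = 0.023), and without pregnant replicate 1 it was -0.16 (0.76).

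Reg3b was measured by 2 probe sets, and both showed the same order of pregnant arrays. The probe set 1448290_at had 609.9, 288.8 and 759.3 on the non-pregnant arrays and 260.8, 665.9 and 2802.3 on the pregnant ones. The highest pregnant signal was 10.7 times the lowest, where the non-pregnant arrays spanned 2.63-fold. The other probe set, 1416297_s_at, had 170.4, 162.9 and 362.3 without pregnancy and 135.8, 430 and 1388.2 in pregnancy, spans of 2.22-fold and 10.2-fold. Its suffix marks probes that can match transcripts of more than a single gene, so a contribution from a related gene cannot be told apart.

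The groups were not separated for Reg3b. For 1448290_at the mean was 552.7 ± 240.4 without and 1243 ± 1365 with pregnancy (SD, n = 3 each), a log2 difference of 0.62 ± 0.62 (95% interval -0.73 to 1.96; limma adjusted p = 0.62). For 1416297_s_at the means were 231.9 ± 113.0 and 651.3 ± 654.9, with a difference of 0.97 ± 0.59 (95% interval -0.31 to 2.25; adjusted p = 0.37). Pregnant replicate 3 carried much of both values: without it the differences were -0.28 and 0.16. Without non-pregnant replicate 2 they were 0.22 and 0.78. Without pregnant replicate 1, the lowest array, they were 1.39 (adjusted p = 0.16) and 1.77 (adjusted p = 0.040).

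Reg3a was dim, with 75.7, 100.5 and 78.3 on the non-pregnant arrays and 6.2, 63 and 210.8 on the pregnant ones. The signal on pregnant replicate 1 was within the 1.1 to 32.3 spanned by the TrpnX control probe sets for a bacterial transcript, and that on pregnant replicate 3 was the highest of all 6 arrays. The log2 difference was -0.45 ± 0.62 (95% interval -1.80 to 0.91; limma adjusted p = 0.74), though the mean signals were 84.8 ± 13.6 and 93.3 ± 105.6 (SD, n = 3 each). The log2 difference was -0.89 with a pseudocount of 1 and -0.14 with 64, -1.26 without pregnant replicate 3, and its sign turned without pregnant replicate 1 (0.42).

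Reg3g and Reg4 were too dim to be tested, since their mean log2 values lay below the filter that kept the brightest 60% of probe sets. The signal of Reg3g was 4.7, 8.8 and 8.6 without and 3.7, 13.8 and 14.5 with pregnancy, all within the range of the bacterial controls. For Reg4 it was 69.3, 28.3 and 33 without and 21.3, 16.8 and 37 with pregnancy. Only 3 of these 6 values lay above that range, and the groups overlapped. No change was read from either.

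**Figure D2:**
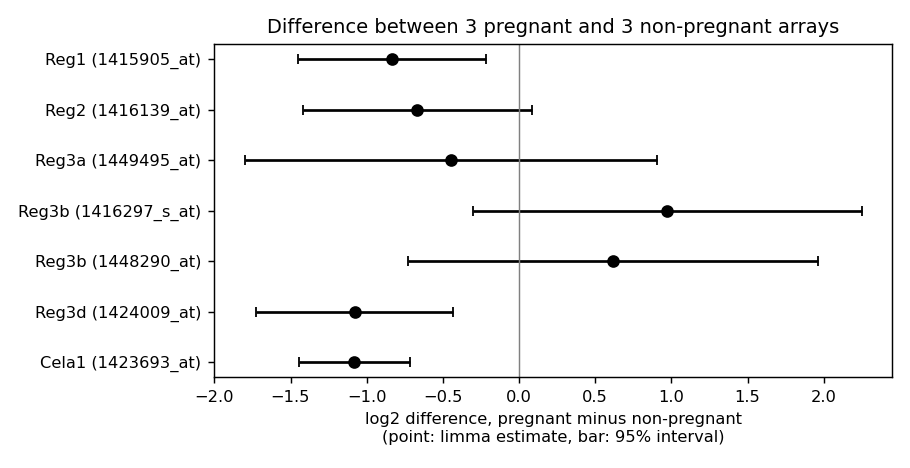
Log2 difference between 3 pregnant and 3 non-pregnant arrays (x axis) for each REG probe set tested and for Cela1, with limma's 95% interval as a bar. The intervals of Reg1, Reg3d and Cela1 lie below 0, and those of Reg2, Reg3a and both Reg3b probe sets include 0. In limma each spread is drawn toward a trend over all probe sets, so bars of members with a large spread are shorter than their own spread gives. With robust eBayes the SE of Reg1 was 0.47 in place of 0.28, and that of Reg3d 0.37 in place of 0.30. For Reg3b 1448290_at it was 1.03 in place of 0.62.

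The arrays of a group differed more in Reg3b than in nearly all other probe sets. The within-group SD of the log2 signal was 1.29 and 1.21 for the Reg3b probe sets and 1.19 for Reg3a, where the median of all probe sets tested was 0.17. Of 27022 probe sets, 11 had a larger SD than Reg3b 1448290_at and 17 a larger one than 1416297_s_at. The SD of Reg3a rests on a signal at background level on pregnant replicate 1 and so on the pseudocount, and it is not read as variation in the gene. The largest SD, that of Alb, came from non-pregnant replicate 2, whereas for the Reg3b probe sets the span was widest among pregnant arrays. For Reg2 the SD was 0.72, for Reg1 0.59 and for Reg3d 0.58, with 562, 1112 and 1189 larger. For Cela1 it was 0.34, with 4816 larger.

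**Figure D3:**
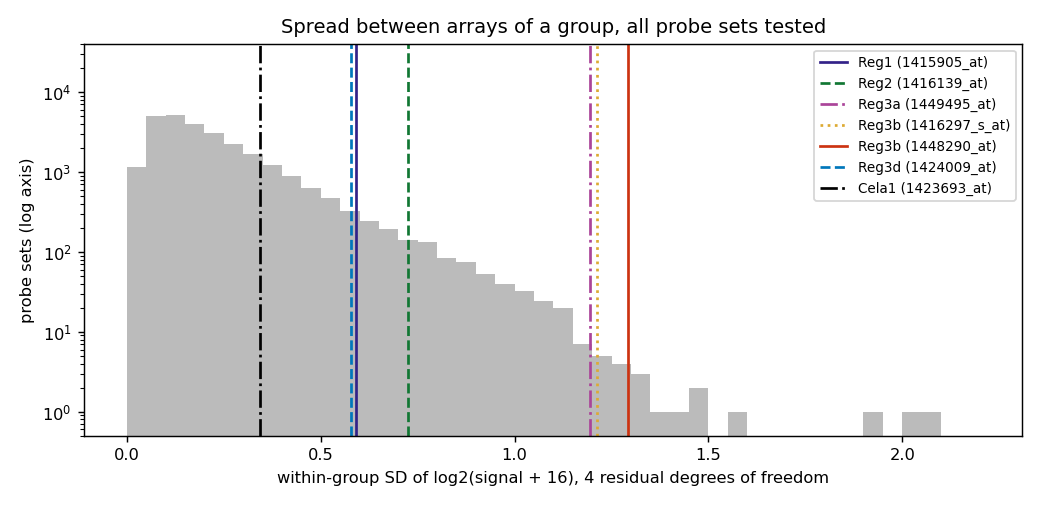
Histogram of the within-group SD of log2(signal + 16) over all 27022 probe sets tested (count on a log axis), with the values of the REG probe sets and Cela1 as vertical lines. Both Reg3b probe sets lie in the far right tail, at 1.29 and 1.21, Reg3a at 1.19 with a background-level signal on 1 array, and Cela1 lies at 0.34.

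All 6 REG probe sets tested had their highest pregnant signal on replicate 3 and their lowest on replicate 1. Of all probe sets tested, 35.0% were highest on pregnant replicate 3 and 32.1% lowest on pregnant replicate 1. The acinar genes ran in the same order on these arrays, from a centred median of -0.91 to -0.24, and Cela1 spanned 0.53 on the log2 scale. Over the same arrays Reg1 spanned 0.70, Reg3d 1.18, Reg2 1.95, and Reg3b 1448290_at 3.35. Among non-pregnant arrays, replicate 2 was the lowest in 5 of the 6 REG probe sets, all but Reg3a. In Reg3b 1416297_s_at it was only just below replicate 1 (162.9 against 170.4). The share of all probe sets lowest on that array was not computed. Over the non-pregnant arrays Reg1 spanned 1.39, Reg3b 1448290_at 1.35, Reg3d 0.88, Reg2 0.61, and Cela1 0.73.

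The members were also set against Cela1 on the same array. Each member's log2 value minus that of Cela1 was compared between the groups, with its mean over the non-pregnant arrays set to 0. Reg3d had 0.11, -0.10 and -0.01 on the non-pregnant and -0.16, -0.33 and 0.49 on the pregnant arrays, a difference of 0.00 between the groups (exact permutation p = 1). For Reg1 the values were 0.11, -0.39 and 0.27 without and 0.24, 0.08 and 0.41 with pregnancy, a difference of 0.25 (exact permutation p = 0.5). The differences of Reg1 and Reg3d from Cela1 were thus within the spread of the arrays, which does not show that these genes changed equally.

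Reg2 relative to Cela1 had 0.06, 0.13 and -0.20 without and -0.34, 0.49 and 1.08 with pregnancy, a difference of 0.41 (exact permutation p = 0.5). Reg3a had -0.34, 0.69 and -0.35 without and -0.82, 0.73 and 2.00 with pregnancy, a difference of 0.63 (exact permutation p = 0.6). In both genes the pregnant arrays lay on either side of the non-pregnant ones.

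Reg3b relative to Cela1 was higher on every pregnant array than on any non-pregnant array in both probe sets. For 1448290_at the values were 0.03, -0.33 and 0.29 without and 0.42, 1.44 and 3.24 with pregnancy, a difference of 1.70. For 1416297_s_at they were -0.53, 0.09 and 0.44 without and 0.73, 2.01 and 3.42 with pregnancy, a difference of 2.05. The exact 2-sided permutation test gave p = 0.1 for each, the smallest p that 3 arrays against 3 allow, so no such comparison can reach 0.05. Since Cela1 itself was lower in pregnancy, 74.3% of all probe sets tested were higher relative to Cela1 without overlap, and the median difference over all was 1.04. The same Cela1 values are subtracted from every probe set, so ranks of these differences are those of the differences without Cela1. In that ranking 97.1% and 99.0% of probe sets had a smaller difference than Reg3b 1448290_at and 1416297_s_at. Without Cela1 their differences were 0.62 and 0.97, and neither passed in limma. Only 0.507% had a smaller difference than Reg3d, 1.40% than Reg1, 2.97% than Reg2 and 8.59% than Reg3a. Without pregnant replicate 3 the Reg3b differences relative to Cela1 were 0.93 for 1448290_at and 1.37 for 1416297_s_at. The first lies below the median of 1.04 that all probe sets had over the 6 arrays. Without Cela1 and that array, the Reg3b differences were -0.28 and 0.16.

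**Figure D4:**
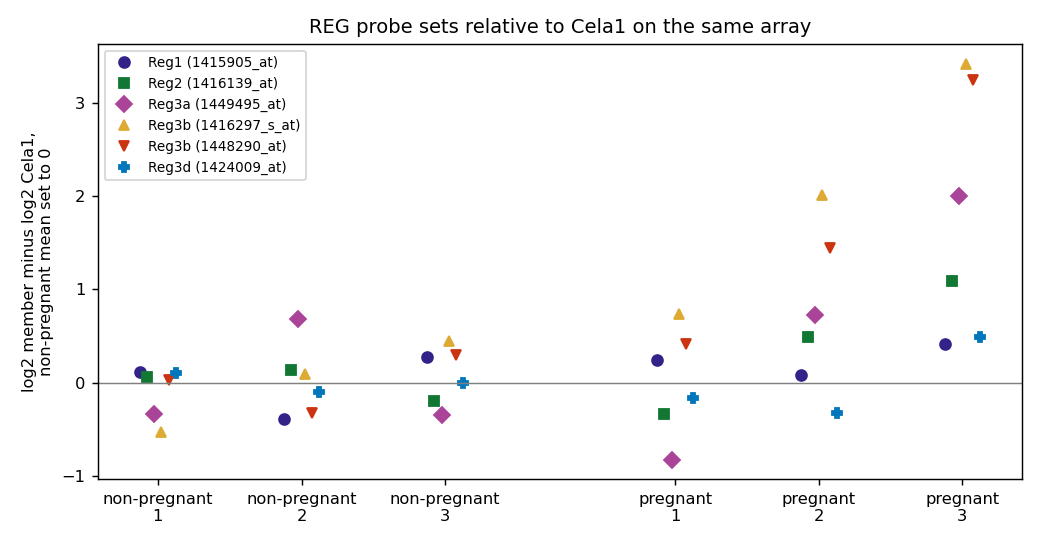
Log2 value of each REG probe set minus that of Cela1 on the same array (y axis, mean of the 3 non-pregnant arrays set to 0) on each of the 6 arrays. Reg1 and Reg3d stay between -0.39 and 0.49 on all arrays, while the Reg3b probe sets reach 3.24 and 3.42 on pregnant replicate 3.

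With the log2 value of Cela1 as a covariate in the limma model, in place of subtraction, Reg1 was higher in pregnancy (0.98 ± 0.18, adjusted p = 0.029), as was Reg3b 1448290_at (3.94 ± 0.80, adjusted p = 0.044). The other Reg3b probe set, 1416297_s_at, did not pass (3.59 ± 0.95, adjusted p = 0.13). The groups do not overlap in Cela1, so these adjusted differences are extrapolations beyond the Cela1 levels that the arrays share. Reg3d had 0.54 (adjusted p = 0.65). Genes named below for an array pattern like that of Reg1 also had higher values in that model. These were 0.94 for Dmbt1 (limma adjusted p = 0.035), 0.53 for Prss2 (0.077) and 0.52 for Ctrb1 (0.096). A rise under this covariate was thus also called for Dmbt1, a gene outside the family. Since these genes were picked for their likeness to Reg1 on the same arrays, they are no independent comparison.

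The genes whose array pattern was most like that of the brightest members were searched among 12909 genes outside the family, by the root mean square difference of centred log2 values over the 6 arrays. For Reg1 these were Erp27, an endoplasmic reticulum protein of the pancreas (0.13), Dmbt1, a secreted scavenger receptor protein (0.14), the chymotrypsinogen Ctrb1 (0.15), the trypsinogen Prss2 (0.15) and Hsd17b13 (0.18), where the median over all genes was 0.65. Cela1 ranked 14 with 0.25. Like Reg1, Prss2 was low on non-pregnant replicate 2, with 16317 against 33045.6 and 31954.4, and had 10195.4, 12493.5 and 17150.3 in pregnancy.

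For Reg2 a different set came out: Slc18a3 (0.16), Adcyap1r1 (0.21), Elavl3 (0.23), Atp2b3 (0.23) and Kcna7 (0.24), against a median of 0.69, and Cela1 ranked 257 with 0.47. These 5 genes were dim, with Slc18a3 at 84.3, 77.3 and 82.6 without and 11.5, 45.4 and 87.7 with pregnancy. Their adjusted p-values in limma lay between 0.27 and 0.71. Pregnant replicate 1 was the lowest array for each, and there all 5 signals, 10.3 to 24.7, lay within the range of the bacterial controls. The likeness to Reg2 thus rests in part on values at background level.

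The promoters of Reg1, Reg3d, Reg3b and Cela1 are shown because the values of Reg1 and Reg3d relative to Cela1 overlapped between the groups and those of Reg3b did not. Of all probe sets tested, 74.3% were likewise higher relative to Cela1 without overlap, so this does not set Reg3b apart from most genes. They are the 250 bases before the transcription start from the RefSeq promoter table (build GRCm38.p6), in which 7 of 7 REG genes were found. Capitals mark 4 motifs searched on both strands: TATAAA, the TATA box; TTCNNNGAA, the STAT site; CACCTG, an E-box; and TTTCCC, a box of the RBPJ type. A site on the opposite strand is shown as the letters of the printed strand. The acinar factor complex PTF1 binds an E-box together with a box of the latter type. Reg1 lies on the + strand at chr6:78425733-78425982, Reg3d on the - strand at chr6:78378866-78379115, Reg3b on the + strand at chr6:78370635-78370884 and Cela1 on the - strand at chr15:100687921-100688170.
Reg1: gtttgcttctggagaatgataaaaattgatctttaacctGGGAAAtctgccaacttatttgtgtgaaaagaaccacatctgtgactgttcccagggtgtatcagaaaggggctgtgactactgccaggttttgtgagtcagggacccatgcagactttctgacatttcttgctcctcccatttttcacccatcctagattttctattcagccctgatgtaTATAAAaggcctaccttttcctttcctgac
Reg3d: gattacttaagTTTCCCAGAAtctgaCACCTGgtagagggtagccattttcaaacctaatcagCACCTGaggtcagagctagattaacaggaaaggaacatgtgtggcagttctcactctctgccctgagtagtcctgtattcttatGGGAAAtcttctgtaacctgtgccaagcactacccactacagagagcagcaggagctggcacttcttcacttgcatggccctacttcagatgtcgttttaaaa
Reg3b: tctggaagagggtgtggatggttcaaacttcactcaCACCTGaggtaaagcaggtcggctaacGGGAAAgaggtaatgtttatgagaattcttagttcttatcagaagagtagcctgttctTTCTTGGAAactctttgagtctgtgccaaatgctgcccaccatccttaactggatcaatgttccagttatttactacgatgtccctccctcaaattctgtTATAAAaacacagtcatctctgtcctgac
Cela1: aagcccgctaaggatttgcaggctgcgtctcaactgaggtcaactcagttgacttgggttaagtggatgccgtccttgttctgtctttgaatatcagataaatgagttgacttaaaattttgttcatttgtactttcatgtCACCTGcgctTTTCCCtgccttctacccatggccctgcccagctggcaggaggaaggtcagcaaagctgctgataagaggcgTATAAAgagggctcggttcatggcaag

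Reg3b held the STAT letters TTCTTGGAA, 129 to 121 bases before the start, and Reg3d held TTCCCAGAA, 238 to 230 bases before it, where it overlaps a TTTCCC match. The other 5 REG promoters had no match to these letters in this window, and 7.01% of 32817 promoter windows of the same length had at least 1. CACCTG was found in 5 of 7 REG promoters (17.2% of all), TTTCCC in 4 of 7 (21.9%) and TATAAA in 4 of 7 (12.4%). In Reg1 TATAAA lay 30 to 25 bases before the start, and in Reg3b 29 to 24. In Cela1 a CACCTG match (109 to 104 bases before the start) and a TTTCCC match (99 to 94) lay close together. The Reg3b promoter was most like that of Reg3g, with 68.9% of aligned positions identical, and the other pairs had 47.8% (Reg2 and Reg4) to 58.5% (Reg1 and Reg2). A match describes the letters and is no evidence that a factor binds there.

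A list of the proposed REG receptor and of the inducing cytokine pathway was counted by the brightest probe set of each gene. Of 24 listed, 21 were on the array and 16 were tested, of which 0 rose and 3 fell, with a median log2 difference of -0.15. Of all 12914 genes tested, 6.1% rose and 5.79% fell. Il6ra, the interleukin-6 receptor, had 6421.6, 6899.9 and 5603 without and 3385, 3363.5 and 3260.3 with pregnancy. The groups were far apart, and the log2 difference was -0.91 ± 0.08 (limma adjusted p = 1.6e-05). Its second probe set was lower as well (-0.49 ± 0.10, adjusted p = 0.011).

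The cytokine gene Il6 fell from 485.8, 522.3 and 544 to 244.4, 255.6 and 327.4 (-0.88 ± 0.14, limma adjusted p = 0.0018). Osmr, the receptor of the related cytokine oncostatin M, went from 218.4, 223.8 and 230.9 to 132.6, 140.5 and 152.4 (-0.61 ± 0.17, adjusted p = 0.038). The groups did not overlap in the probe set used for either gene, as in 27.7% of all probe sets tested. The dimmer Osmr probe sets 1418675_at and 1459217_at were below the filter, and their groups overlapped. The Osmr call was lost in 11 of 17 alternative settings, each left-out array among them (adjusted p 0.062 to 0.11). That of Il6 was lost with Cela1 as a covariate (0.42).

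Extl3, a proposed REG receptor, had 440, 407 and 424.6 without and 483.8, 444 and 413.4 with pregnancy, a difference of 0.07 ± 0.12 (limma adjusted p = 0.78). Stat3 had 0.11 ± 0.09 in its brightest probe set (adjusted p = 0.53), with 4447.8 on pregnant replicate 3 as its highest signal, while another of its 4 probe sets, 1460700_at, was higher in pregnancy (0.26 ± 0.07, adjusted p = 0.026). Il22ra1, the interleukin-22 receptor, was below the filter, at 1.9 to 40.4.

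Targets of STAT3 and acute-phase genes showed no common direction. Of 24 listed, 14 were tested, of which 1 rose and 2 fell (6.1% and 5.79% of all genes), with a median of -0.11. Nupr1, a stress protein first described in pancreatitis, as was Reg3b, had 2986.3, 2718.6 and 2862.7 without and 5217.5, 5359.6 and 5566.2 with pregnancy (0.91 ± 0.06, limma adjusted p = 3.6e-06). Unlike Reg3b it hardly differed among the pregnant arrays. Il1r1, the interleukin-1 receptor, fell from 8159.4, 8579.9 and 7353.2 to 3926.5, 4136.2 and 4202.5 (-0.97 ± 0.07, adjusted p = 3.7e-06). The transcription factor gene Junb had -0.42 ± 0.09 (adjusted p = 0.015), and did not pass with each array centred on its median (0.071), with no variance trend (0.12), with Cela1 as a covariate (0.14) or without non-pregnant replicate 2 (0.059), pregnant replicate 1 (0.058) or pregnant replicate 3 (0.062). Socs3, a feedback inhibitor induced by STAT3, did not pass (-0.14 ± 0.10, adjusted p = 0.47). On single arrays the centred median of these genes was 0.08, 0.05 and 0.02 on the non-pregnant arrays and -0.05, -0.03 and 0.10 on the pregnant ones. The value on pregnant replicate 3 was thus close to that on non-pregnant replicate 1. The receptor and cytokine list had centred medians of -0.07, -0.06 and -0.07 on the pregnant arrays. For the macrophage markers these were -0.12, -0.07 and 0.13, and the value on non-pregnant replicate 2 was 0.12.

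Among acinar transcription factors, 1 of 4 tested rose and 0 fell (6.1% and 5.79% of all genes). This was Bhlha15, which acts in secretory cells, with a log2 difference of 1.18 ± 0.09 (limma adjusted p = 8.6e-06), opposite in sign to Reg1, Reg3d and Cela1. Its dimmer probe set, 1418800_at, did not pass (0.80 ± 0.29, adjusted p = 0.12). Ptf1a (-0.75, adjusted p = 0.17), Nr5a2 (-0.06, 0.94) and Xbp1 (0.09, 0.34) did not pass either, and the median of the list was 0.02.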

How the data were processed

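Per the labels' protocols, islet RNA was labelled with the Affymetrix 3' IVT Express kit. The deposited intensities are MAS5 signals on a linear scale, per the submitters' processing notes; the sources used here do not give the version or settings. The 2% trimmed mean was 500.003 on every array, so no further scaling was applied. The 64 AFFX controls were left out. The scale was log2(signal + 16); this pseudocount of 16 understates changes of dim genes. The brightest 60% of probe sets (27022, mean signal above about 50.5) were tested in limma 3.58.1 under R 4.3.3 (eBayes with a variance trend, 2-sided, Benjamini-Hochberg threshold 0.05, no covariate, 4 residual degrees of freedom). The fit was tested on simulated data with independent noise and with spreads shuffled over probe sets. That test does not cover a variance trend or differences between arrays that genes share. A member minus Cela1 was compared by an exact permutation test, since a fit across probe sets would share the error of Cela1.

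Symbols came from the platform annotation (34958 probe sets with 1 symbol, 932 with several, 9211 with none; 34754 found by Entrez identifier, 0 changed). Lists used the brightest probe set per gene. The members and lists were chosen with earlier results of these data known. Genes named were the members, Cela1, the 4 smallest p past the threshold in the pathway lists, fixed receptors, and the 5 nearest patterns of the 2 brightest members; marker lists are given by counts. Socs3, Alb, Apoa1 and the acinar transcription factors aside, no other gene was added. Promoters were searched with Python 3.11.15 and aligned with Biopython 1.88, and figures were drawn with matplotlib 3.10.9. Alternatives were pseudocounts of 1 and 64, quantile normalization, median centring, no filter, a top 40% filter, no trend, robust eBayes, array weights, a replicate block, Cela1 as a covariate, mean probe sets and each array left out.

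No label says that the replicate numbers pair animals, so same-numbered arrays were not treated as pairs. Over all probe sets tested they did not deviate together (correlations of deviations from the group means -0.03, -0.07 and 0.03). Single genes can differ from this: with the replicate number as a block the SE of Reg1 was 0.17 in place of 0.28, and that of Osmr 0.18 in place of 0.17.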

Additional observations from a re-analysis of the deposited data

How the results depend on the processing

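Of the REG probe sets, 1 fell and 0 rose, and this count moved with the processing. With quantile normalization, no filter, no variance trend or robust eBayes 0 fell, with Cela1 as a covariate 2 rose and 0 fell, and with any 1 array left out 0 to 2 fell and 0 to 1 rose. With the replicate number as a block 2 fell, since Reg1 then passed (adjusted p = 0.012). Only non-pregnant replicate 3 correlated best with its own number. Of all 27022 probe sets, 1293 fell and 1294 rose in the main fit. These totals were 1143 and 1365 with quantile normalization, 210 and 393 with no variance trend, and 1256 and 1310 with robust eBayes. With Cela1 as a covariate they were 69 and 178, and with the block 1145 and 1211. Left-out arrays gave 677 to 976 and 811 to 1271. With no filter 879 fell and 1013 rose, of 45037. Cela1 did not pass without the variance trend (-1.08, adjusted p = 0.079) or with robust eBayes (-1.08, adjusted p = 0.098), and was -1.32 to -0.95 with any 1 array left out. With Cela1 as a covariate the sign turned for Reg1 (0.98), Reg2 (1.05), Reg3a (1.24), Reg3d (0.54), Ctrb1 (0.52), Prss2 (0.53), Dmbt1 (0.94), Erp27 (1.02), Hsd17b13 (0.63), Slc18a3 (0.46), Adcyap1r1 (1.30), Elavl3 (1.01), Atp2b3 (0.67) and Kcna7 (0.34).

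Of the acinar secretory genes 0 fell without the variance trend, 1 with robust eBayes, 0 with Cela1 as a covariate, where 1 rose, and 8 to 21 with any 1 array left out. Of the STAT3 list 1 fell with median centring, without the variance trend and with Cela1 as a covariate, and 1 of the cytokine list fell with that covariate. Left-out arrays gave ranges of -1.26 to -0.57 for Reg1, -1.45 to -0.86 for Reg3d, -1.13 to -0.16 for Reg2, -1.26 to 0.42 for Reg3a, and -0.28 to 1.39 and 0.16 to 1.77 for Reg3b. For Adcyap1r1 the range was -0.78 to 0.26 and for Elavl3 -0.86 to 0.093. The cause of these shifts was not tested. The dim Reg3a, Reg3g and Reg4 are limited by signal over background.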
